A study of Mus musculus with 8 samples.

Results

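The 8 genes described here encode the hypoxia-inducible factors (HIFs) and the proteins that couple them to oxygen: Hif1a, Epas1, Hif3a, Arnt, Egln1, Egln2, Egln3 and Vhl. They were picked by gene symbol from a table of 53700 genes, and Hif3a was among the reasons for the choice because of its levels against the Nfat5 label. Those levels are therefore given as a description, without a test. RNA was measured in 8 libraries of mouse bone marrow cells, which cross 2 cell types with 4 donor labels. Haematopoietic stem cells (HSC, CD150+ and CD48-) and multipotent progenitors (MPP, CD48+ and CD150-) were sorted within LSK cells, the marrow fraction that lacks lineage markers and carries Sca-1 and Kit.

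Donor marrow carried CD45.2 and was of 4 kinds. WT donors were Nfat5 +/+ with Vav-Cre, and N5 donors were Nfat5 fl/fl with Vav-Cre, a recombinase driven in blood-forming cells. IFNAR donors were IFNAR1-deficient, and their label names no Cre. DKO donors combined Nfat5 fl/fl Vav-Cre with IFNAR1 deficiency. All of it was transplanted into irradiated wild-type recipients carrying CD45.1, and CD45.2+ cells were sorted 13 weeks later, so the WT cells had also been transplanted. Each library pooled cells of 5 recipients, and no combination of cell type and label was sequenced more than once. Recipient age is not given in the sources used here. With 1 library a group, every test below takes its error from differences among labels or cell types, not from replicate pools.

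HIFs are dimers of an oxygen-regulated alpha subunit (HIF-1 alpha, HIF-2 alpha or HIF-3 alpha, from Hif1a, Epas1 and Hif3a) and a constant beta subunit from Arnt. With oxygen present, the prolyl hydroxylases PHD2, PHD1 and PHD3 (from Egln1, Egln2 and Egln3) modify the alpha subunit, and the protein of Vhl then recruits it for destruction. Because this control acts on protein stability, transcript levels do not report HIF activity. HSC reside in poorly oxygenated marrow and are known for a glycolytic metabolism in which HIF-1 alpha takes part.

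Total counts per library ran from 28871693 to 47205950. Values by library are given in the order WT, N5, IFNAR and DKO wherever 4 values follow one another without labels. Levels are CPM, counts per 1000000 of the library total after TMM factors that align the libraries. For single libraries, 95% exact Poisson intervals cover counting error only. The gate's defining genes followed the sort. Slamf1, which encodes CD150, lay between 52.2 and 90.0 CPM in the HSC libraries and at most 0.0275 CPM in MPP. Cd48 lay between 202 and 284 CPM in MPP and at most 6.36 CPM in HSC. Markers of some other cells also differed with the sort. The summed level of 5 neutrophil genes ran from 346 to 648 CPM in HSC and from 4249 to 10575 CPM in MPP. Mpo and Elane carried that difference, whereas S100a8, S100a9 and Ltf overlapped between the cell types. The sum of 7 erythroid genes overlapped too, at 200 to 587 CPM in HSC and 166 to 421 CPM in MPP. Megakaryocyte genes (6 of 6 counted) summed to between 1133 and 1333 CPM in HSC and between 136 and 293 CPM in MPP. Of 7 endothelial genes, Cdh5 was at 0 in all 8 libraries and the sum ran from 536 to 649 CPM in HSC and from 153 to 279.6 CPM in MPP. Of 5 stromal genes, Lepr, Col1a1 and Pdgfra were at 0 throughout, Cxcl12 did not exceed 0.102 CPM, and Pdgfrb stood at 55.7 to 71.2 CPM in MPP and at 0 in HSC. Monocyte and macrophage genes (5 of 5 counted) summed to at most 0.0290 CPM in HSC and to between 62.0 and 245 CPM in MPP. The part of these cell types in the differences below was not tested, and in bulk RNA fewer cells of a type and less RNA per cell cannot be told apart.

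The targeted genes did not follow their labels. Nfat5, which encodes a transcription factor of the response to osmotic stress, was counted at 33.2, 22.7, 3.12 and 35.5 CPM in HSC and at 5.59, 7.69, 0.193 and 11.5 CPM in MPP. The lowest Nfat5 level of each cell type thus belonged to the library labelled IFNAR, not to one labelled as deficient in Nfat5. Ifnar1, which encodes part of the receptor for type I interferons, was at 122, 126, 113 and 35.1 CPM in HSC and at 37.2, 87.9, 43.8 and 125 CPM in MPP. It was highest among MPP in the library labelled DKO. A gene total also counts exons outside a deleted part, and the position of the deletions is not given in the sources used here. Groups are called by their labels for this reason.

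Hif3a encodes the HIF-3 alpha subunit, some forms of which oppose the other HIFs, and it was all or none along the Nfat5 label. Its counts were 546 in the HSC library labelled WT, 1620 in that labelled IFNAR, 469 in the MPP library labelled WT and 454 in that labelled IFNAR. In the 4 libraries labelled N5 or DKO it was at 0. A floor of 3 counts, worth 0.0633 to 0.105 CPM there, stands in for these zeros below. The upper limits of their 95% exact Poisson intervals are higher, at 0.0779 to 0.130 CPM.

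The promoter of Hif3a is shown because its transcript was the one with this pattern. That of Egln3 is shown because its 2 libraries at 0 were of HSC (N5 and IFNAR). Both are 300 bases of the RefSeq table for GRCm38.p6, from 250 bases before the start site on, read 5′ to 3′ on the gene's strand. Hif3a lies at chr7:17062378-17062677 and Egln3 at chr12:54203825-54204124, both on the minus strand. Capitals mark matches to the HIF core motif ACGTG or GCGTG on either strand.
Hif3a: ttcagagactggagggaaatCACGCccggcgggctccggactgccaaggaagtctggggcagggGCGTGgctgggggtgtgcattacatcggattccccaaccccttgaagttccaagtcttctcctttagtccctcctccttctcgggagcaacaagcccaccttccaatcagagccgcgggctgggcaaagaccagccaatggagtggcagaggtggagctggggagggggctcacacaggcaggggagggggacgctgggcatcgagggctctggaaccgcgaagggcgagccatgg
Egln3: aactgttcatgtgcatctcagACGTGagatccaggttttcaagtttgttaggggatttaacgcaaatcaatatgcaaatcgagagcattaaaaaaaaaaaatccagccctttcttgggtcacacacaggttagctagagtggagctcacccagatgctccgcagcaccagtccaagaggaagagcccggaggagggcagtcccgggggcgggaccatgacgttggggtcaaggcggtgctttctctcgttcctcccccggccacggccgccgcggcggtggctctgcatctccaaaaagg
The table held 7 of the 8 genes, without Epas1. Hif3a had 2 matches, both GCGTG, at positions -230 and -186 from the start site. Egln3 had 1 match, ACGTG, at -229. One or the other core was present in 43.8% of 32851 promoters of the same length (ACGTG in 19.6%, GCGTG in 32.4%), so a match of this kind is common. The tonicity element bound by NFAT5, searched on both strands, was present in 4.96% of promoters. Of the 7 genes, Hif1a alone held a match to it, and Hif3a did not. Hif1a also had 3 matches to ACGTG, 2 of them within 1 CACGTG, where the strands overlap, a sequence present in 7.15% of promoters. These windows hold letters only, and no binding was measured.

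On the CPM scale Hif3a stood at 15.8 in HSC WT (interval 14.5 to 17.2), 41.4 in HSC IFNAR (39.4 to 43.5), 15.5 in MPP WT (14.1 to 17.0) and 12.5 in MPP IFNAR (11.4 to 13.7). The 4 libraries with Nfat5 intact by label did not overlap with the 4 others. Their mean was 21.3 ± 13.5 CPM (SD, n = 4), 242-fold the mean of the floors of the libraries at 0. Against the floor of the matched library, the ratios were 162-fold (HSC WT against N5), 654-fold (HSC IFNAR against DKO), 147-fold (MPP WT against N5) and 147-fold (MPP IFNAR against DKO). The mean of the 4 log2 ratios, taken with a prior count of 2, was -8.38 ± 0.77 (SD, n = 4). Hif3a was the single one of the 6 tested members at 2-fold or more lower in all 4 pairs. Among all 12132 genes tested, 0.321% were 2-fold or more lower and 0.577% as much higher in all 4 pairs by the Nfat5 label. These values chose the gene, and nothing is read from them.

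**Figure D1:**
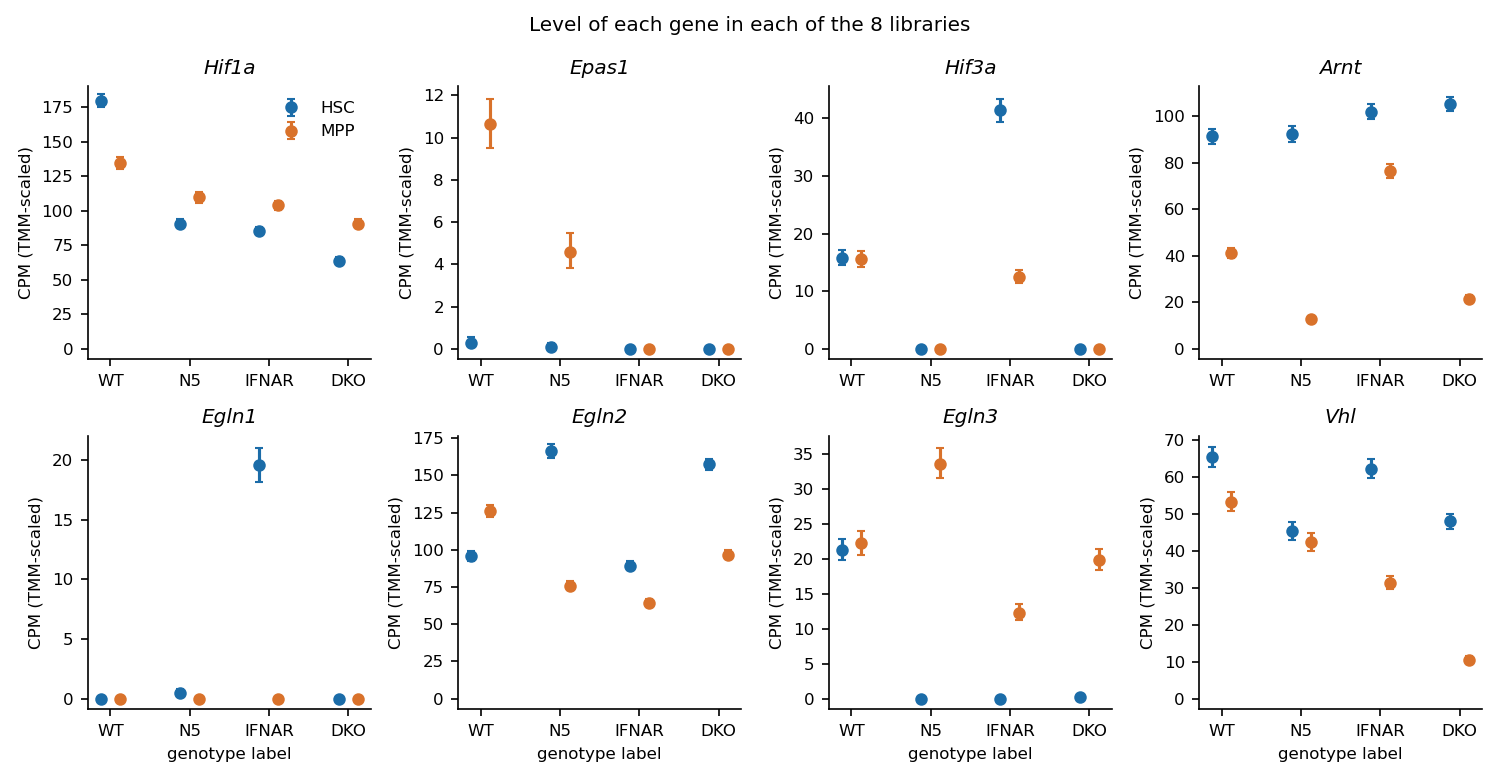
Level of each gene in CPM (TMM-scaled, linear axis) in the 4 HSC (blue) and 4 MPP (orange) libraries by donor label, with bars for the 95% exact Poisson interval of the count in that library. Hif3a is at 0 in the 4 libraries labelled N5 or DKO, Epas1 at 0 in the 4 labelled IFNAR or DKO, Egln1 is counted above 1 CPM in HSC IFNAR alone, and Arnt is higher in each HSC library than in any MPP library.

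Few genes were distributed as Hif3a was. Of 13068 genes with 3 or more counts in at least 4 libraries, 3 (0.023%) were at 0 in all 4 libraries labelled N5 or DKO and at 3 or more counts in all 4 others. Mlf1 and Capn3 were the other 2. Mlf1, a gene first known from a fusion in myeloid leukaemia, had 350, 708, 167 and 592 counts in HSC WT, HSC IFNAR, MPP WT and MPP IFNAR. Capn3, a calpain protease, had 494, 384, 21 and 29 counts in the same libraries. By the mean absolute difference of centred log2 CPM over the 8 libraries, the nearest genes to Hif3a were Mlf1 at 0.55, Pnp2 at 0.87 and Zfp820 at 0.89. Pnp2, a purine nucleoside phosphorylase, reached 4.29 to 24.3 CPM with Nfat5 intact by label and at most 0.105 CPM otherwise. Zfp820, a zinc finger gene, ran from 8.28 to 40.0 CPM and stayed at or below 0.0652 CPM on the other side. Hif3a was chosen for its levels against this label and these genes for their likeness, so the share and the levels are a description.

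The genes beside Hif3a on its chromosome had other patterns. Ppp5c, a phosphatase gene on one side, stood at 33.9, 218, 166 and 159 CPM in HSC and at 191, 262, 239.8 and 153 CPM in MPP. Ccdc8, on the same side, was at 12.4, 0.326, 12.7 and 15.7 CPM in HSC and at 0, 6.95, 7.59 and 0 CPM in MPP. Neither was at 0 throughout the libraries labelled N5 or DKO. Ceacam3, on the other side, was at 0 in all 8, and Psg16 did not exceed 0.255 CPM.

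**Figure D2:**
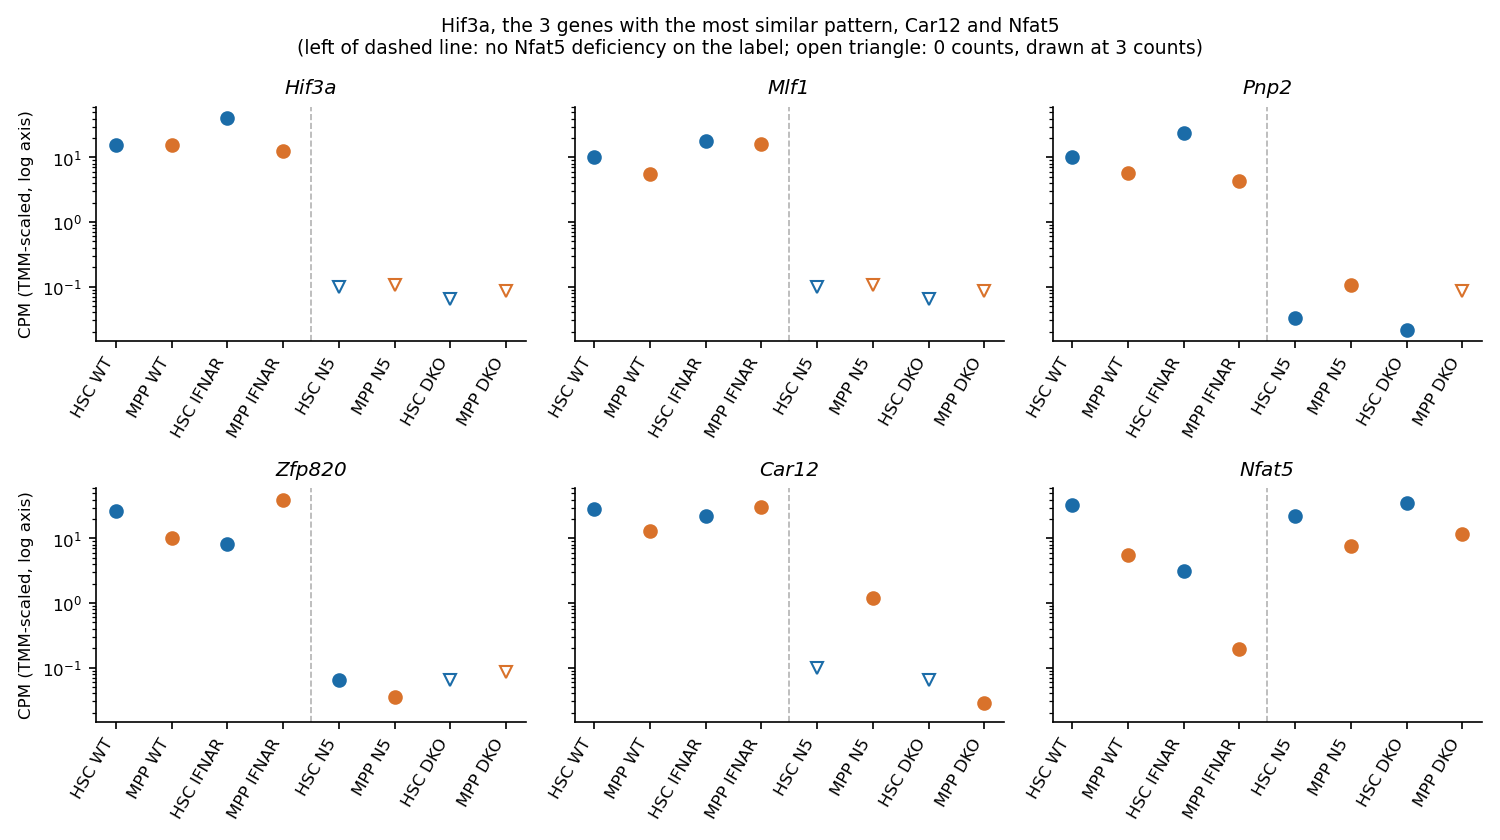
Level in CPM (TMM-scaled, log axis) in the 8 libraries for Hif3a, its 3 nearest genes, the HIF target Car12 and Nfat5 (blue, HSC; orange, MPP; open triangles, 0 counts drawn at the floor of 3 counts). Hif3a and Mlf1 are at 0 in every library right of the dashed line, whereas Nfat5 is lowest in the 2 libraries labelled IFNAR.

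Between cell types Hif3a did not pass the test. In edgeR's quasi-likelihood test, with the donor label as a block, the HSC minus MPP log2 fold change was 0.70 (SE 1.40, adjusted p = 0.951). HSC exceeded MPP by 1.72 on the log2 scale in the libraries labelled IFNAR and by 0.03 in those labelled WT. Against the Ifnar1 label, with cell type and Nfat5 label as terms, edgeR gave 0.46 (SE 1.45, adjusted p = 1). That value turned to -0.01 without HSC WT and to -0.20 without HSC IFNAR.

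Hif1a, the alpha subunit most studied in stem cells, was counted in every library and had the narrowest range after Egln2. It stood at 179.6, 90.5, 85.0 and 63.8 CPM in HSC and at 134, 109.6, 104 and 90.5 CPM in MPP. The library labelled WT was the highest and that labelled DKO the lowest in each cell type. The highest of the 8 libraries was 2.81-fold above the lowest.

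Between cell types Hif1a overlapped, with a mean of 104.7 ± 51.2 CPM in HSC and 109.6 ± 18.3 CPM in MPP (SD, n = 4 each). edgeR gave an HSC minus MPP log2 fold change of -0.16 (SE 0.23, adjusted p = 0.908). HSC was higher in the pair labelled WT by 0.42 on the log2 scale and lower in the 3 others. By the Ifnar1 label, Hif1a was lower in 4 of 4 pairs, with an edgeR log2 fold change of -0.57 (SE 0.22). Its unadjusted p in edgeR was 0.0418 and its adjusted p was 1, so it was not called. Within HSC the mean of 2 pair log2 ratios was -0.79 and within MPP it was -0.32. Of all genes tested, 6.16% were lower in 4 of 4 pairs and 3.28% had an unadjusted p under 0.05.

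By the Nfat5 label Hif1a was lower in 4 of 4 pairs too, by log2 ratios of -0.99, -0.41, -0.29 and -0.20 (HSC N5 against WT, HSC DKO against IFNAR, and the same for MPP). Both labels set WT on one side, so the comparisons share control libraries. Hif1a, Hif3a and Vhl were the 3 of 6 tested members lower in 4 of 4 pairs by the Nfat5 label, against 5.35% of all genes, a contrast that the choice of Hif3a used. An antisense gene that overlaps exons of Hif1a, Gm15283, had at most 5 counts in a library.

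Epas1 encodes HIF-2 alpha, known from endothelium and from control of erythropoietin. It was scarce, and at 0 wherever the label said Ifnar1 deficiency. In the MPP libraries labelled WT and N5 it had 321 and 131 counts, or 10.6 and 4.60 CPM. In the HSC libraries of these labels it had 10 and 3 counts, or 0.290 and 0.0979 CPM. The 4 libraries labelled IFNAR or DKO had 0 counts each. The groups by Ifnar1 label thus did not overlap, although the HSC library labelled N5 was at the floor of 3 counts.

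The mean of Epas1 with Ifnar1 intact by label was 3.90 ± 4.94 CPM (SD, n = 4). This was 50.8-fold the mean floor of the others, a ratio carried by the 2 MPP libraries. This pattern was seen in 11 of 13068 genes (0.0842%), at 0 in all 4 libraries labelled Ifnar1-deficient and at 3 or more counts in all 4 others. Epas1 did not pass the filter on low counts. Fitted without that filter, edgeR gave adjusted p = 0.882 for the Ifnar1 label and, for HSC minus MPP, a log2 fold change of -4.08 with adjusted p = 0.631. In HSC the mean level was 0.0969 ± 0.137 CPM and in MPP 3.81 ± 5.04 CPM (SD, n = 4 each), with 2 libraries at 0 in each. The MPP libraries labelled WT and N5 held most of the Epas1 counts. Of the 7 endothelial genes, Cdh5 was at 0 in all 8 libraries. Pecam1 stood at 114, 121, 171.3 and 182.8 CPM in MPP, and Esam at 69.8, 25.004, 41.02 and 42.92 CPM. The sum of the 7 genes was 248.2, 153.1, 279.6 and 258.1 CPM in MPP. In HSC that sum ran from 536 to 649 CPM, most of it from Esam, Vwf and Tek. Pecam1 was lower in HSC, at 15.4 to 99.4 CPM, so the genes of the sum went both ways between cell types. The part of endothelial RNA in the Epas1 counts was not tested.

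Arnt encodes the beta subunit that all 3 alpha subunits need, and its level was steady in HSC and scattered in MPP. Its levels were 91.4, 92.3, 102 and 105 CPM in HSC and 41.1, 12.6, 76.4 and 21.5 CPM in MPP. The lowest HSC library lay above the highest MPP library, and Arnt was the only member without overlap between cell types. Of all genes tested, 4.73% lay wholly above and 5.65% wholly below in HSC.

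The mean of Arnt was 97.7 ± 6.94 CPM in HSC and 37.9 ± 28.3 CPM in MPP (SD, n = 4 each), a 2.58-fold difference. edgeR gave an HSC minus MPP log2 fold change of 1.68 (SE 0.51), higher in 4 of 4 pairs, with an unadjusted p of 0.0205 and an adjusted p of 0.388. The difference therefore did not pass at an adjusted p of 0.05 in edgeR, where 10.1% of all genes had an unadjusted p under 0.05. DESeq2, run as an alternative, gave 1.71 with adjusted p = 0.00289. The other models gave 1.23 (limma-voom) to 1.71 (RLE factors), none called. Without HSC WT, 3 members did not overlap between cell types (Hif1a, Arnt and Egln3), and without MPP WT 2 did not (Arnt and Vhl).

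By label, Arnt moved apart in the 2 cell types. N5 against WT and DKO against IFNAR gave log2 ratios of 0.02 and 0.05 in HSC and of -1.70 and -1.83 in MPP. By the Ifnar1 label Arnt was higher in 4 of 4 pairs, as were 5.9% of all genes, with an edgeR log2 fold change of 0.51 (SE 0.44, adjusted p = 1). The genes nearest to Arnt over the 8 libraries were Ikzf5 at a mean absolute difference of 0.25, Garre1 at 0.28 and Mgmt at 0.31. Ikzf5, an Ikaros family transcription factor, stood at 58.3, 47.5, 78.7 and 50.2 CPM in HSC and at 25.8, 9.52, 33.8 and 14.0 CPM in MPP.

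**Figure D3:**
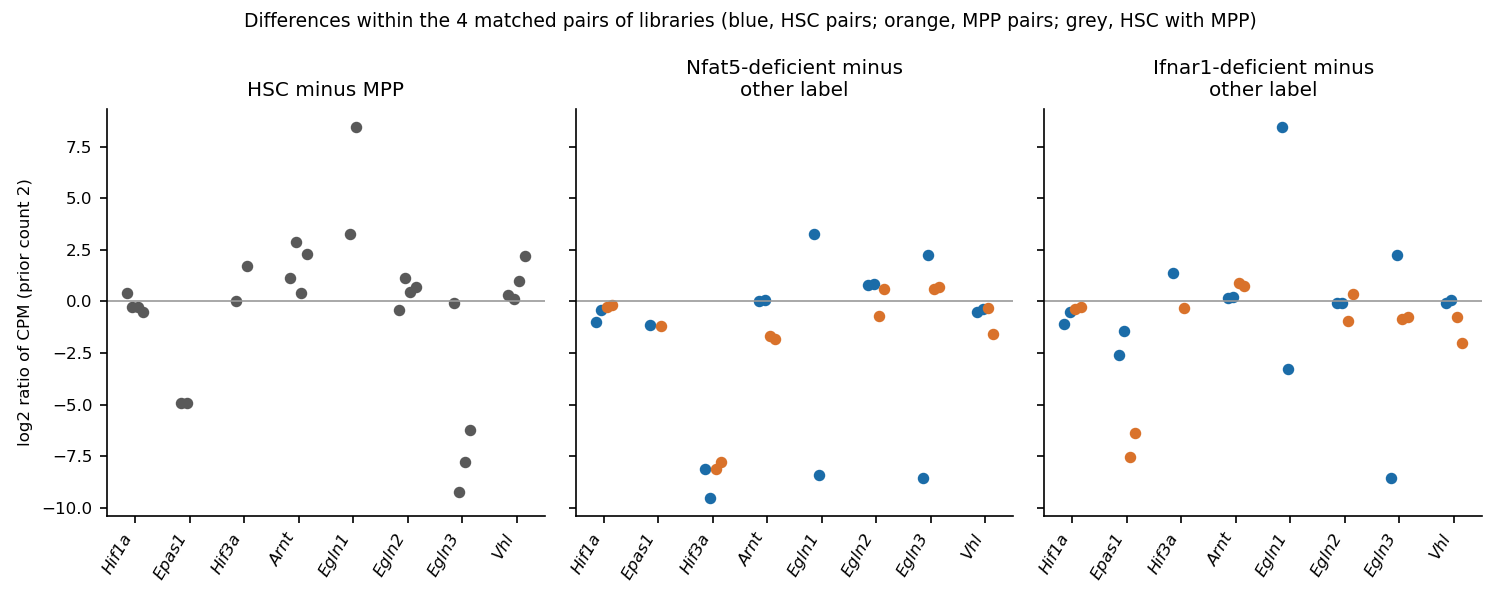
log2 ratio of CPM (prior count 2, linear axis) of each gene within the 4 matched pairs of libraries, for HSC minus MPP (grey), for labels with Nfat5 deficiency minus those without and for labels with Ifnar1 deficiency minus those without (blue, HSC pairs; orange, MPP pairs), leaving out pairs with both libraries at 0. Hif3a lies below -7 in all 4 pairs by the Nfat5 label, Arnt lies near 0 in HSC and below -1.5 in MPP in the same panel, and Egln3 lies far below 0 in 3 of 4 pairs of HSC with MPP.

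The 3 prolyl hydroxylases differed widely in level and pattern. Egln2, which encodes PHD1, was counted in every library and per length was the highest member. It stood at 95.6, 166, 89.2 and 157 CPM in HSC and at 126, 76.0, 64.1 and 96.8 CPM in MPP. The 2 highest libraries were HSC N5 and HSC DKO, and the cell types overlapped. edgeR gave an HSC minus MPP log2 fold change of 0.48 (SE 0.30, adjusted p = 0.712), with HSC higher in 3 of 4 pairs. The fold change by the Ifnar1 label was -0.25 (SE 0.31, edgeR adjusted p = 1), which turned to 0.098 without MPP WT. By the Nfat5 label Egln2 was higher in 3 of 4 pairs, with log2 ratios of 0.80 and 0.82 in HSC and of -0.73 and 0.59 in MPP.

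Egln1 encodes PHD2, regarded as the main oxygen sensor for HIF-1 alpha. It had 765 counts, or 19.5 CPM (interval 18.2 to 21.0), in the HSC library labelled IFNAR and 15 counts, or 0.489 CPM, in that labelled N5. The 6 other libraries were at 0, which allows up to 0.0633 to 0.105 CPM each. All of its signal thus came from 2 HSC libraries, and nearly all of it from 1. The gene did not pass the filter on low counts, and without the filter edgeR gave adjusted p = 0.631 for HSC minus MPP.

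Egln3 encodes PHD3, whose transcript is itself a known target of HIF. It stood at 21.3 CPM in HSC WT, 0 in HSC N5, 0 in HSC IFNAR and 0.211 in HSC DKO. In MPP it stood at 22.2, 33.7, 12.3 and 19.9 CPM. Every MPP library thus held the transcript, and among HSC the one labelled WT reached the MPP range, with the 3 others at 10 counts or fewer.

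Within labels, Egln3 in MPP stood at 344-fold the floor of the HSC library for N5 and at 161-fold for IFNAR. For WT it was lower in HSC by 0.06 on the log2 scale. The mean was 5.39 ± 10.6 CPM in HSC and 22.0 ± 8.84 CPM in MPP (SD, n = 4 each), and the groups overlapped because of HSC WT. Egln3 was the 1 member lower in HSC in 4 of 4 pairs, as were 12% of all genes. edgeR gave a log2 fold change of -7.94 (SE 3.49, unadjusted p = 0.0693, adjusted p = 0.544), and DESeq2 gave -8.32 with adjusted p = 6.35e-05. The size depended on the model, with -2.19 by bias-adjusted quasi-likelihood, -2.03 without the label block, -4.62 with both labels as terms and -5.80 by limma-voom, none of these called. For the Ifnar1 label edgeR gave -2.93 (SE 2.97, adjusted p = 1), which turned to 0.36 without HSC WT. The genes nearest to Egln3 over the 8 libraries were Ccdc66 at a mean absolute difference of 0.51, Rad51b at 0.54 and Cnnm2 at 0.64. Rad51b, a gene of homologous recombination, stood at 12.4 CPM in HSC WT, at 0 in the 3 other HSC libraries and at 9.60 to 34.8 CPM in MPP.

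A library at 0 was common among tested genes of this level. Among tested genes whose highest library stood at 10 to 50 CPM, 55.3% had at least 1 library at 0, 33.3% had 2 or more and 7.02% had 4 or more. The share with at least 1 was 20% for a highest library at 50 to 100 CPM and 3.12% at 100 CPM or more. The filter on low counts keeps genes counted in about 4 libraries, so it limits how many zeros a tested gene can have. Epas1 and Egln1 did not pass that filter, and these shares do not cover them. Egln3 had 2 libraries at 0, Hif3a and Epas1 had 4 and Egln1 had 6, each with its highest library in this range, whereas Hif1a, Arnt, Egln2 and Vhl were never at 0. The libraries were PCR-amplified without molecular identifiers, so a count is not a molecule.

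Vhl encodes the recognition subunit of the ligase that marks hydroxylated alpha subunits. Its levels were 65.6, 45.3, 62.4 and 48.1 CPM in HSC and 53.4, 42.4, 31.4 and 10.5 CPM in MPP. The library labelled DKO was the lowest of MPP by far, and the cell types overlapped. Vhl was higher in HSC in 4 of 4 pairs, as was Arnt, against 9.81% of all genes. edgeR gave an HSC minus MPP log2 fold change of 0.88 (SE 0.53, adjusted p = 0.698).

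By the Nfat5 label the log2 ratios of Vhl were -0.53 and -0.38 in HSC and -0.33 and -1.58 in MPP. In the fit by Ifnar1 label edgeR gave -0.65 (SE 0.48, adjusted p = 1), with a mean log2 ratio of 0.01 within HSC and of -1.39 within MPP. Genes near to Vhl over the 8 libraries included Stx6 at a mean absolute difference of 0.14 and Cstf1 at 0.21. Stx6, a syntaxin of vesicle transport, was at 19.96 CPM in MPP DKO and between 66.7 and 141 CPM in the other 7 libraries.

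Levels can be set beside each other only per length of transcript. On the scale of CPM per kilobase of merged exons (lengths from an annotation of GRCm38.p6), the mean over 8 libraries was 38.9 for Egln2, 18.2 for Hif1a, 15.0 for Vhl and 8.47 for Arnt. It was 5.15 for Egln3, 1.59 for Hif3a, 0.697 for Egln1 and 0.349 for Epas1. Among alpha subunits the order was Hif1a, Hif3a, Epas1, and among hydroxylases Egln2, Egln3, Egln1. The mean hides that the lower 4 were at 0 in 2 to 6 of the 8 libraries.

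None of the 6 tested members was called between cell types or by the Ifnar1 label. By edgeR at an adjusted p of 0.05, 2 of 12132 genes (0.0165%) differed between HSC and MPP and none by the Ifnar1 label (0%, with 398 genes at an unadjusted p under 0.05). DESeq2 called 1880 and 233 genes for the same 2 comparisons, with Arnt and Egln3 the members among the 1880. No tested member was 2-fold or more apart the same way in all 4 pairs of HSC with MPP, as were 1.81% of genes higher and 2.21% lower. None was by the Ifnar1 label, as were 0.33% of genes higher and 0.602% lower.

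Among the partners and regulators of HIF none passed the test between cell types. Of 20 listed genes 19 were tested, and Arnt2, a paralogue of Arnt, was at 0 in all 8 libraries. In HSC minus MPP, 4 were higher and 15 lower, with a median edgeR log2 fold change of -0.43, beside -0.10 over all genes tested, of which 44.2% were higher. By edgeR 2 had an unadjusted p under 0.05, beside 10.1% of all genes, and 2 were lower in 4 of 4 pairs, beside 12%. Usp20, a deubiquitinase, was at 35.7 CPM in HSC N5, at 0 in the 3 other HSC libraries and at 14.6 to 40.0 CPM in MPP (log2 fold change -10.86). The coactivator gene Ep300 had a log2 fold change of -1.71, with 11.4, 19.8, 0.0255 and 46.9 CPM in HSC. Arntl, also called Bmal1 and a relative of Arnt, had -0.81 and Eloc, a subunit of the ligase with VHL, -0.72. The chaperone gene Hsp90aa1 was below in HSC without overlap, at 1212 to 1587 CPM against 1657 to 2363 CPM, a gene named after its values were seen.

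By the Ifnar1 label 10 of the 19 partners were higher and 9 lower, none called by edgeR. Among those with a mean of at least 10 CPM, the fitted log2 fold changes farthest from 0 were -4.09 for Usp20, -0.73 for Hif1an, -0.62 for Arntl and -0.56 for Ep300. Siah2 and Siah1a, ubiquitin ligase genes below that level and so outside the rule for naming, had 5.07 and 2.25, each with 3 libraries at 0. Siah2 stood at 13.4 CPM in HSC IFNAR and 8.47 CPM in MPP IFNAR, but at 0 in HSC DKO and 0.510 CPM in MPP DKO. Hif1an encodes FIH, the asparaginyl hydroxylase that blocks coactivator binding, and it stood at 22.7 CPM in HSC IFNAR and 35.9 CPM in MPP IFNAR, the lowest library of each cell type. By the Nfat5 label 12 were higher and 7 lower in the mean of 4 pairs, with a median of 0.06 beside 0.03 over all genes.

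Genes known as HIF targets outside glycolysis went both ways between cell types. Of 40 listed, 31 were tested, 15 of them higher and 16 lower in HSC (median edgeR log2 fold change -0.02), and none was called. Among those at 0 in all 8 libraries were Vegfa, Adm, Lox, Epo and Tmem45a, and Ankrd37, P4ha2 and Stc2 were counted but not tested. Plod2, a collagen lysyl hydroxylase, had a log2 fold change of 9.24, with 35.0, 12.9, 0 and 43.0 CPM in HSC and 0.0662, 0, 12.5 and 0 CPM in MPP. Tfrc, the transferrin receptor, had -6.98, with at most 21.6 CPM in HSC and at least 32.7 CPM in MPP. Insig2 had -4.41 and Pfkfb4, an enzyme that sets glycolytic flux, 3.64. By edgeR 17 were higher and 14 lower between the Ifnar1 labels, again none called, with fitted log2 fold changes of -8.86 for Nfil3, -5.11 for Pfkfb4, 3.63 for Plod2 and 2.33 for Vldlr. Such fitted values, of genes with libraries at or near 0, depend on the prior and are no measure of size. In the pairs by the Ifnar1 label, 6 of the 31 were higher in 4 of 4 and 1 was lower. The shares of all genes were 5.9% and 6.16%, and the list was not tested as a set.

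By the Nfat5 label 18 of these 31 genes were higher and 13 lower in the mean of 4 pairs. Car12, a carbonic anhydrase, was the 1 gene of the list at 2-fold or more lower in all 4 pairs, as were 0.321% of all genes. It stood at 29.0, 0, 22.0 and 0 CPM in HSC and at 13.2, 1.19, 30.7 and 0.0283 CPM in MPP. Car12 was named through the same label that chose Hif3a, so these levels are a description. Its relative Car9, a standard reporter of HIF activity, did not share this pattern, at 9.51, 0.391, 23.8 and 31.7 CPM in HSC and 10.9, 38.4, 30.1 and 42.2 CPM in MPP. Pfkfb3, the other enzyme of its kind, and Bnip3, a gene of mitophagy, were higher in 4 of 4 pairs, as were 5.79% of all genes, with mean log2 ratios of 1.69 and 0.41.

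All 14 glycolytic targets were tested and none was ever at 0. In HSC minus MPP 8 were higher and 6 lower, with a median edgeR log2 fold change of 0.05 and none called. By edgeR 5 of the 14 had an unadjusted p under 0.05, as did 10.1% of all genes. Without overlap 3 were above and 2 below in HSC, beside 4.73% and 5.65% of all genes. Aldoc, an aldolase, was above in HSC without overlap at 30.4 to 65.7 CPM against 6.72 to 24.7 CPM (log2 fold change 1.41). Pgam1, a phosphoglycerate mutase, was below without overlap at 142 to 219 CPM against 409 to 509 CPM (-1.33). Hk2 and Pfkp, enzymes of the early steps, had 0.87 each. Between the Ifnar1 labels 7 were higher and 7 lower, led by Hk2 at -0.47 and Pfkl at -0.35. By the Nfat5 label 5 were higher and 9 lower in the mean of 4 pairs, with a median of -0.07 beside 0.03 over all genes. Tpi1 alone was higher in 4 of 4 pairs, with a mean log2 ratio of 0.13.

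Other oxygen-dependent dioxygenases, most of them demethylases of histones or oxidases of methylated DNA, were all tested (13 of 13). In HSC 6 were higher and 7 lower, with a median edgeR log2 fold change of -0.30 and none called. Kdm4b, a histone demethylase, was above in HSC without overlap at 71.1 to 153 CPM against 20.3 to 62.3 CPM (1.29). Tet3, Kdm5c and Tet2 had -1.05, -0.94 and 0.78. By the Ifnar1 label 10 were higher and 3 lower, where 49.6% of all genes were higher, and again none was called by edgeR. Tet3 was at 1.06 and Ado, a thiol dioxygenase, at -0.82. Kdm5b and Tet2 had -0.80 and 0.45. Between the Nfat5 labels 8 were higher and 5 lower in the mean of 4 pairs, with a median of 0.17.

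**Figure D4:**
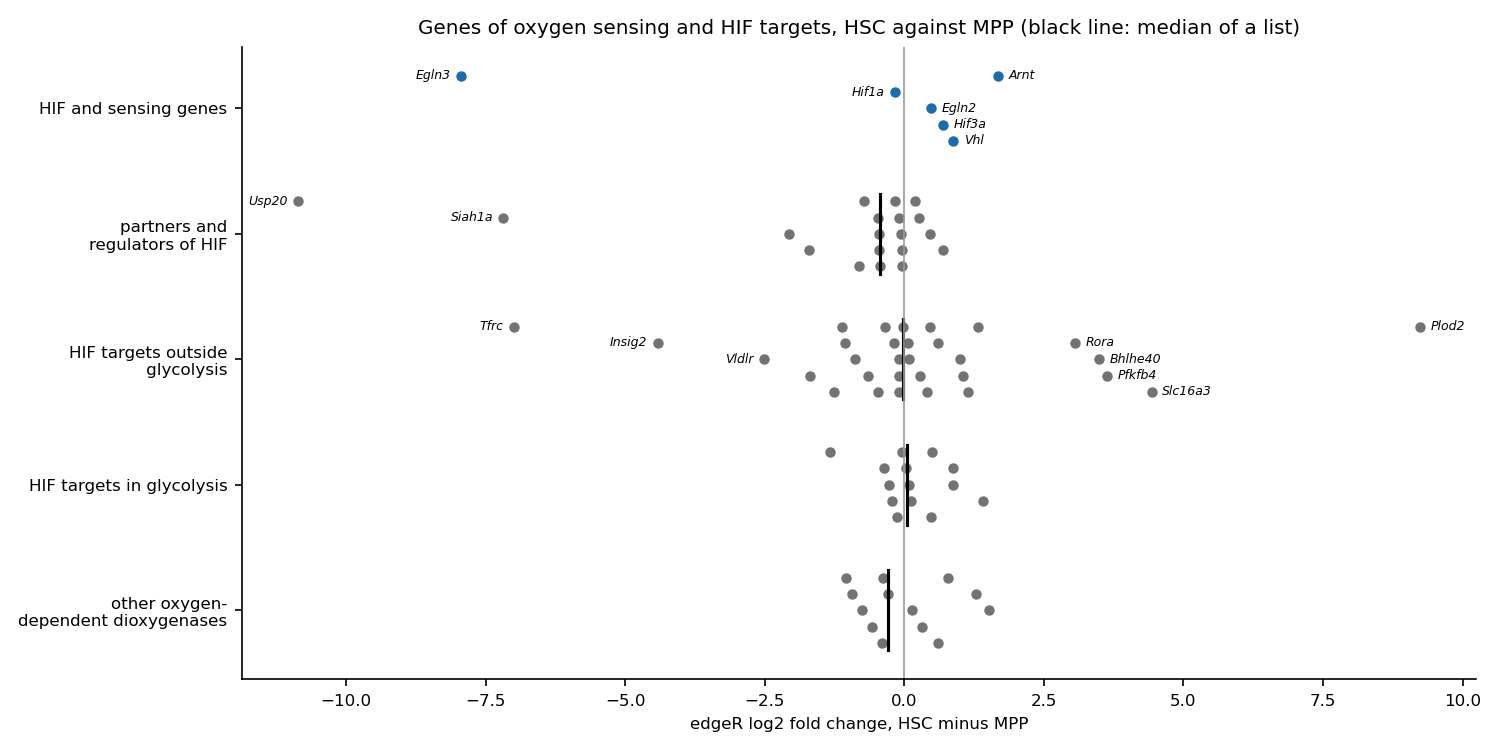
edgeR log2 fold change, HSC minus MPP (linear axis), of the 6 tested members (blue) and of each tested gene in 4 lists of related genes (grey), with the median of each list as a black line and the genes past 2.4 named. The list medians lie between -0.43 and 0.05, and the widest fitted values belong to genes with libraries at 0, such as Usp20, Plod2, Egln3 and Tfrc.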

How the data were processed

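Polyadenylated RNA of 8 pools was amplified with Smart-Seq2, per the labels' protocols, a protocol that marks neither strand nor molecules. Raw whole-number counts per gene were deposited in a single table, without normalization. STAR 2.7.8a, RSEM 1.3.0 and GRCm39 are named in the submitters' processing notes. How RSEM estimates became whole counts, and the annotation release, is not given in the sources used. RefSeq promoters and exon lengths came from tables of GRCm38.p6, and no coordinate was converted.

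Cell type and label came from the labels of each library, and columns were matched by name. Tests on counts used the older quasi-likelihood method of edgeR 4.0.16 in R 4.3.3 (glmQLFit, glmQLFTest), after TMM scaling and filterByExpr by cell type, which left 12132 genes with 99.46% of counts. Benjamini-Hochberg adjustment ran over all of them. This test reports no standard error. Each SE given with an edgeR value is the absolute log2 fold change divided by the square root of the F statistic. For genes with libraries at 0, such as Hif3a and Egln3, that SE is only a rough guide. HSC and MPP were compared with the label as a block (3 residual degrees of freedom). The Ifnar1 label was compared with cell type and Nfat5 label as terms (4 residual degrees of freedom). Common dispersion for the cell types was 1.09. The Nfat5 label was described by log2 ratios in 4 pairs (prior count 2), without a test. A fold against libraries at 0 used 3 counts per library as the floor, and intervals cover counting error only. Steps were tested on simulated data.

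The 8 genes and the gene lists were chosen with earlier results of these data known. Of each list and comparison, up to 4 genes with the largest fitted change and a mean of at least 10 CPM are named. For the Nfat5 label up to 3 targets with the same sign in 4 of 4 pairs are named. For tested members spanning more than 2 on the log2 scale, the 3 nearest genes are named. Some genes of these lists and rules are not reported here. Capn3, Car9, Hsp90aa1 and the neighbours of Hif3a were added after their values were seen, as were the descriptions of Aldoc and Kdm4b as not overlapping. Alternatives were DESeq2 1.42.0, limma-voom (limma 3.58.1), RLE factors, other filters, prior counts and models, and leaving out each library. Figures were drawn with matplotlib 3.10.9.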

Additional observations from a re-analysis of the deposited data

Results flagged for a closer look

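By Dixon's gap test, a single library stood far from the 3 others of its cell type for 2 genes. The test took its critical value for 4 and was applied to 16 groups of 4. Egln1 in MPP was among them, at 0 throughout, and gives no gap. Chance meets the criterion in about 1 group in 20 for replicates with a normal spread. These libraries carry different labels and hold many zeros, so that rate need not apply to them. Egln1 stood at 19.5 CPM in the HSC library labelled IFNAR, with the other HSC libraries at 0.489 CPM or less. Egln3 stood at 21.3 CPM in the HSC library labelled WT, with the others at 0.211 CPM or less. The log2 ratios of Arnt by the Nfat5 label had opposite signs in the 2 cell types. Their mean was 0.0304 in the 2 HSC pairs, both of them above 0, and -1.76 in the 2 MPP pairs, both below 0. The HSC ratios were near 0, with overlapping Poisson intervals within each pair, so nothing is read from their sign. The difference between cell types was not tested.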

How the results depend on the processing

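The number of genes called between HSC and MPP, 2 in edgeR, was 23 with a filter of 10 CPM in 4 libraries, 107 with bias-adjusted quasi-likelihood, 156 with limma-voom, 1880 with DESeq2, 207 without the label block and 32 with both labels as terms. It ran from 0 to 0 when each library was left out in turn. For the Ifnar1 label the count of 0 became 1 with bias-adjusted quasi-likelihood, 1 with limma-voom and 233 with DESeq2. No member was called in any edgeR or limma-voom setting, whereas DESeq2 called Arnt and Egln3 between cell types.

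The mean log2 ratio of Hif3a by the Nfat5 label was -10.38 with a prior count of 0.5 and -7.07 with 5, as the libraries at 0 take their value from the prior. Chosen after seeing the data, the N5 and WT pairs alone gave -8.11 and the DKO and IFNAR pairs alone -8.65. Members without overlap between cell types numbered 1 to 3 when libraries were left out, 3 without HSC WT and 2 without MPP WT. Fitted values by the Ifnar1 label that changed sign, none of them called, were those of Hif3a (-0.01 without HSC WT, -0.20 without HSC IFNAR, up to 0.96 without others), Egln3 (0.36 without HSC WT, down to -4.76 without others) and Egln2 (0.098 without MPP WT, down to -0.46 without others). The cause was not tested. At these depths the floor of 3 counts, set for a zero of Epas1, Egln1, Hif3a or Egln3, is worth 0.0633 to 0.105 CPM.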

Other observations

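Epas1 shared its zeros along the Ifnar1 label with 10 other genes, named here after their values were seen. Isg15, an interferon-stimulated gene, had 150, 201, 71 and 109 counts in HSC WT, HSC N5, MPP WT and MPP N5 and 0 in the 4 libraries labelled IFNAR or DKO. Trim68, a ubiquitin ligase gene, had 1825, 612, 283 and 314 counts in the same 4 libraries. Slc46a1, the proton-coupled folate transporter, had 1143, 261, 378 and 912 counts. Oxsr1, a kinase of the response to osmotic stress, had 657, 202, 193 and 180 counts. Slc12a4, a potassium chloride cotransporter, had 1532, 416, 201 and 409 counts. The remaining 5 were Lrrc66, Pgm2l1, Oaf, Gm26982 and 2900060B14Rik. Unlike Epas1, these 5 described genes had more than 50 counts in each library labelled WT or N5.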
